A study of Homo sapiens with 2 samples.

Results

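The enzymes of glycolysis and a set of genes of the hypoxia response were followed in HMC3 cells given recombinant human periostin. They were chosen by name, with earlier results of these data known. In all, 37 genes were named, of which 17 are glycolytic enzymes. The rest are transporters, oxygen sensors and targets of hypoxia-inducible factor (HIF) with other functions. Of the 37 genes, 36 were listed in the deposited tables, among 11943 genes in all, and CA12 was not analysed here. All 36 had a mean of at least 1 FPKM in at least 1 group and so were among the 10982 genes tested. FPKM counts sequenced fragments relative to the length of the transcript and to the fragments mapped in the library, so that levels of different genes can be set side by side. CA9 passed this filter through the PBS group alone, with a mean of 0.730 FPKM after rhPOSTN and 1.75 FPKM after PBS.

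The study asked how microglia respond to periostin (POSTN), an extracellular matrix protein that binds integrins and that glioblastoma stem cells secrete. One group of HMC3 cells received recombinant human POSTN (rhPOSTN, 3 libraries) and the other received PBS, the saline vehicle (3 libraries), and RNA-seq was performed on both. HMC3 is an established human microglial cell line, labelled as genotype WT in both groups, and both were grown in the same serum-containing medium. RNA was taken after 1 duration of treatment at 1 concentration of rhPOSTN, and the labels name no low-oxygen group. Separate cultures are not named as the source of the 3 libraries of a group, and a p-value here covers the spread among these libraries alone, technical spread included. The line is immortalised and kept in monoculture, which limits it as a model of microglia in the brain. Of 12 markers of microglia and macrophages, TREM2 and CD68 were listed, with a summed level of 13.2 to 18.1 FPKM after rhPOSTN and 8.13 to 19.6 FPKM after PBS, and the other 10, which include P2RY12, CX3CR1, CSF1R, AIF1 and PTPRC, were not analysed here. The markers of fibroblasts and pericytes were listed for 5 of 6 genes and summed to 146 to 176 FPKM after rhPOSTN and 141 to 364 FPKM after PBS. In bulk RNA, fewer cells of a type and less RNA per cell cannot be told apart.

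The summed FPKM per library lay between 184122 and 195494. PBS library 3 was unlike the rest: across genes it correlated with the other 5 libraries at 0.926 to 0.949, against 0.977 to 0.985 for the 10 other pairs, and the 13 mitochondrially encoded genes held 1.48% of its summed FPKM, against 4.95% to 7.78% in the others. The counts and the differences of the main members are therefore also given without PBS library 3. The depth of the libraries is unknown, since FPKM keeps no read counts.

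Glycolysis splits glucose into pyruvate in the cytosol, and lactate dehydrogenase turns pyruvate into lactate when it is not passed to the mitochondria. In the presence of oxygen, prolyl hydroxylases (EGLN1, EGLN3) mark the HIF1A protein for degradation, and when oxygen is short HIF1A escapes, pairs with ARNT and binds DNA at the cores ACGTG and GCGTG. Its targets include most glycolytic enzymes, glucose transporters and secreted factors such as VEGFA, and in microglia a shift toward glycolysis is known to go with activation. HIF1A is regulated mainly as a protein, which was not measured here.

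The promoters of 6 members are shown because these members, with HK1, were the ones whose rhPOSTN libraries all lay below all PBS libraries, as described further on. Sequences come from RefSeq (GRCh38.p14), run from 250 bases before to 50 bases after the annotated start, and are written 5′ to 3′ on the strand of the gene. Capitals mark each match to ACGTG or GCGTG on either strand, so that CACGT and CACGC are the same cores read on the other strand, and CACGTG holds 2 overlapping matches.
ANGPTL4: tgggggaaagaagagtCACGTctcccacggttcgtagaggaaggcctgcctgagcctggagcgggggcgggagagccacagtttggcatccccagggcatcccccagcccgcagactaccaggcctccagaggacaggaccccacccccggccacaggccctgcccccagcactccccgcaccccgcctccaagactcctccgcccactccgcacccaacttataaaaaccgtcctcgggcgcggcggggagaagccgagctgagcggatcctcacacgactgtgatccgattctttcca
CA9: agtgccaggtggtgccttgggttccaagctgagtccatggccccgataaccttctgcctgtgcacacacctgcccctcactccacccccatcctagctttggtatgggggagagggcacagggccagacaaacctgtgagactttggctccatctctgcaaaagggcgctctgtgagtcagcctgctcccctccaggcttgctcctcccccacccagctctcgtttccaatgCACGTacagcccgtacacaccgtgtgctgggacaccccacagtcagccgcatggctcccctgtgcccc
HK2: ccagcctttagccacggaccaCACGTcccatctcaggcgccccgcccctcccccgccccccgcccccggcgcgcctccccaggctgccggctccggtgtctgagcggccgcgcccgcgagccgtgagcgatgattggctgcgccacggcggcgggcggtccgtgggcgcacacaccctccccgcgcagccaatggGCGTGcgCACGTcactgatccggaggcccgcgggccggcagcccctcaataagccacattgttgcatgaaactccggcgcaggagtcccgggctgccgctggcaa
PGK1: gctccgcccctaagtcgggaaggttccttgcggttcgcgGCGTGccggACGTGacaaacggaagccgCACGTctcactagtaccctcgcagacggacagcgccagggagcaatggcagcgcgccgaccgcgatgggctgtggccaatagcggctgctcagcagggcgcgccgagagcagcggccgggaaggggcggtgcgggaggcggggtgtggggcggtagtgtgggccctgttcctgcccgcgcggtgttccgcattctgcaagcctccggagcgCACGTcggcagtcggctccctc
ENO1: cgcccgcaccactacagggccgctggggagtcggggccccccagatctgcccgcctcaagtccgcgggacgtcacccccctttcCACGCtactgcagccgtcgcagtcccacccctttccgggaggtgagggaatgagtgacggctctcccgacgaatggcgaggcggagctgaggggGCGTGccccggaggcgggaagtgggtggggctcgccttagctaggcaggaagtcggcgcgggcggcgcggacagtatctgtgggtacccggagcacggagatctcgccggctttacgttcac
BNIP3: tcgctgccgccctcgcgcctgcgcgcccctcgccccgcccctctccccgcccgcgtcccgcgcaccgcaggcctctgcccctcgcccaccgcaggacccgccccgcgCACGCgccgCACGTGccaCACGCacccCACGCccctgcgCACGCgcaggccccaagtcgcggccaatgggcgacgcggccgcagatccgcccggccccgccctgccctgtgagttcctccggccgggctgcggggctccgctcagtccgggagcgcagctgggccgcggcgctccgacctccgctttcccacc
These windows are chr19:8363905-8364204 (plus strand) for ANGPTL4, chr9:35673678-35673977 (plus) for CA9, chr2:74833877-74834176 (plus) for HK2, chrX:78103998-78104297 (plus) for PGK1, chr1:8878637-8878936 (minus) for ENO1 and chr10:131981874-131982173 (minus) for BNIP3. ANGPTL4 held 1 match, which begins at base -234 from the start, and CA9 held 1, which begins at base -18. HK2 held 3 matches, PGK1 held 4 and ENO1 held 2. BNIP3 held 6 matches, all between bases -143 and -104 by their first base. HK1 met the same rule, but its window, which held 0 matches, is not printed, so that all 6 sequences shown hold a core. Each member was searched at 1 annotated start, and any other start of the same gene was not searched. The count for HK1 therefore covers this window alone.

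Of the 36 members, 32 had a promoter in the RefSeq table, and SLC2A3, VEGFA, BNIP3L and NDRG1 had none. At least 1 core was found in 23 of these 32 promoters (71.9%), with 12 of 17 among the glycolytic enzymes and 11 of 15 among the other members. Windows of the same length held a core in 64.2% of the 9302 promoters of listed genes and in 48.4% of all 35116 promoters. The 2 cores differed: ACGTG was in 15 of the 32 promoters of members (46.9%), against 27.1% of those of listed genes. GCGTG was in 14 of the 32 (43.8%), against 51.8%. Many members were named as known HIF targets, so a higher share of a core can follow from the choice of genes and is no separate result. A match of 5 letters describes the sequence and is not a binding site.

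Limma, fitted on log2(FPKM + 1) of all 10982 tested genes, called 0 of the 36 members at an adjusted p under 0.05, and the adjusted p of the members ran from 0.951 to 0.992. Over all tested genes 0.0182% were called higher and 0.0% lower. At an unadjusted p under 0.05 the same test found 0 members higher, where the share of all genes was 2.45%, and 3 members lower (ANGPTL4, HK2 and CA9), where it was 0.765%. The 3 rhPOSTN libraries lay below the 3 PBS libraries in 4 of 17 glycolytic enzymes (HK1, HK2, PGK1 and ENO1) and in 3 of 19 other members (BNIP3, CA9 and ANGPTL4), beside 2.76% of all tested genes. They lay above the PBS libraries in 0 members, beside 8.94% of all tested genes. CA9 stands in both counts of lower members, but it passed the filter only through PBS, the group where it is high. Its place in these counts, and among the 13 negative differences of the other members given next, is therefore no support for a lower level. The log2 difference, rhPOSTN minus PBS, was negative in 15 of 17 glycolytic enzymes and in 13 of 19 other members, beside 36.5% of all tested genes. The median difference was -0.17 for the glycolytic enzymes and -0.08 for the other members, against 0.06 over all tested genes. Because the members were chosen with earlier results of these data known, these counts and medians are description and no independent support.

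These counts moved with single libraries and with the scaling. Without PBS library 3, limma again called 0 members, with 0.0638% of all genes called higher and 0.0365% lower, while 8 members were lower at an unadjusted p under 0.05 (background 2.48%) and 0 were higher (background 7.07%). The 8 were PGK1, ANGPTL4, CA9, HK2, GPI, LDHA, PDK1 and ENO1, of which CA9 again passed the filter through the PBS group alone. In these 5 libraries the groups did not overlap, with rhPOSTN lower, in 8 glycolytic enzymes and 7 other members (background 10.2%), and with rhPOSTN higher in PFKM and ANKRD37 (background 20.4%). The counts of negative differences stayed at 15 and 13, beside 41.1% of all tested genes. Without rhPOSTN library 2 the non-overlapping lower members numbered 8 glycolytic enzymes and 5 others (background 5.97%), and 1 member was lower at an unadjusted p under 0.05 (background 0.364%). Without rhPOSTN library 3, 1 member was lower at that p (background 0.501%).

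When the libraries were scaled by the median of ratios, negative differences covered 52.0% of all tested genes, 15 glycolytic enzymes and 15 other members. Non-overlapping lower values then held for 7 glycolytic enzymes and 4 others (background 5.67%). Under this scaling the genes with no overlap split into 499 higher and 622 lower, against 982 higher and 303 lower as deposited, and those at an unadjusted p under 0.05 into 150 higher and 166 lower, against 269 and 84. With smooth curves of GC content and transcript length removed from each library, the rhPOSTN libraries lay below the PBS libraries in 8 glycolytic enzymes and 4 others (background 6.05%).

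**Figure D1:**
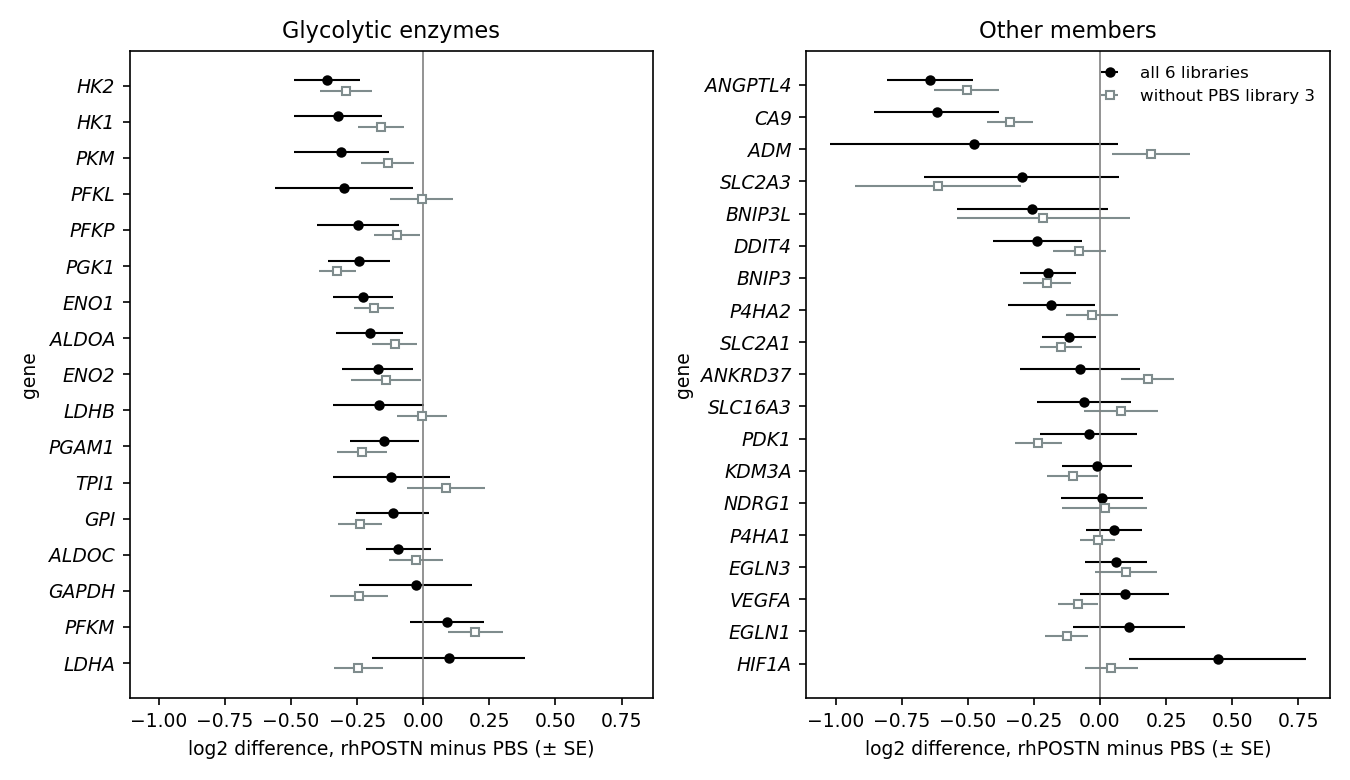
Log2 difference of each member, rhPOSTN minus PBS, on the log2(FPKM + 1) scale, with its SE as a bar, from all 6 libraries (filled circles) and without PBS library 3 (open squares). Glycolytic enzymes are on the left and the other members on the right, and 15 of 17 and 13 of 19 filled circles lie left of 0.

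The first step of glycolysis, the phosphorylation of glucose, is carried by hexokinases, of which HK1 and HK2 are members here. HK1 (ENSG00000156515.21_3, chromosome 10 from 71029740 to 71161638 on GRCh37, plus strand) was at 42.7, 43.9 and 40.6 FPKM in rhPOSTN libraries 1, 2 and 3, against 51.0, 44.2 and 67.0 FPKM in PBS libraries 1, 2 and 3. The groups did not overlap, but PBS library 2 lay only just above the rhPOSTN values and PBS library 3 far above them, and the difference of -0.32 ± 0.16 (SE; limma adjusted p = 0.951) was -0.16 without PBS library 3. HK2, the inducible isozyme and a known HIF target (ENSG00000159399.9_3, chromosome 2 from 75061108 to 75120486, plus strand), was at 21.4, 17.5 and 19.0 FPKM in the rhPOSTN libraries, against 24.1, 23.4 and 27.8 FPKM in the PBS libraries. All 3 rhPOSTN values lay below the lowest PBS value, with a difference of -0.36 ± 0.12 (95% interval -0.66 to -0.07; limma adjusted p = 0.951) and of -0.29 without PBS library 3. The balance of HK1 and HK2 overlapped between the groups. HK2 held 33.4%, 28.5% and 31.9% of their summed FPKM after rhPOSTN and 32.1%, 34.6% and 29.3% after PBS. HKDC1, a further hexokinase that is not a member, is left out of these shares. It ranged from 20.55 to 23.4 FPKM after rhPOSTN and from 20.3 to 28.3 FPKM after PBS. The HKDC1 groups overlapped, with a difference of -0.09, which was 0.04 without PBS library 3.

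Phosphofructokinase, which commits sugar to glycolysis, is built from the muscle (PFKM), liver (PFKL) and platelet (PFKP) subunits. PFKP was the most abundant, at 53.4, 52.6 and 46.8 FPKM in the rhPOSTN libraries and 56.6, 52.5 and 74.3 FPKM in the PBS libraries. PFKL was at 20.6, 21.2 and 16.6 FPKM after rhPOSTN and at 19.3, 19.5 and 36.7 FPKM after PBS. PFKM was at 13.8, 11.5 and 11.8 FPKM after rhPOSTN and at 10.2, 11.1 and 13.5 FPKM after PBS. In all 3 genes the groups overlapped and PBS library 3 held the highest PBS value, and the differences were -0.25 ± 0.16 for PFKP, -0.30 ± 0.26 for PFKL and 0.09 ± 0.14 for PFKM (SE). Without PBS library 3 they were -0.10 for PFKP, -0.01 for PFKL and 0.20 for PFKM. As a share of the 3 genes PFKM was at 15.7%, 13.5% and 15.7% after rhPOSTN, against 11.8%, 13.3% and 10.8% after PBS. These shares did not overlap between the groups, by a margin between rhPOSTN library 2 and PBS library 2 that was smaller than the spread within either group.

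Aldolase cleaves the 6-carbon sugar, and ALDOA is its main form outside liver and brain. ALDOA was at 63.7, 70.8 and 63.1 FPKM in the rhPOSTN libraries and at 68.1, 73.9 and 86.6 FPKM in the PBS libraries, with overlap between the groups and a difference of -0.20 ± 0.13 (SE), which was -0.11 without PBS library 3. ALDOC, the brain form, was far lower, at 2.32, 2.92 and 2.55 FPKM after rhPOSTN and at 2.60, 2.71 and 3.21 FPKM after PBS. It held 3.52% to 3.97% of the aldolase FPKM after rhPOSTN and 3.54% to 3.68% after PBS.

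TPI1, which interconverts the 3-carbon products, was at 280.0, 319 and 228 FPKM in the rhPOSTN libraries and at 253, 262 and 396 FPKM in the PBS libraries. Its groups overlapped, and its difference was -0.12 ± 0.22 (SE) over all 6 libraries and 0.09 without PBS library 3. GAPDH, which makes the first NADH of the pathway, was the most abundant member and the 13th most abundant of all listed genes. It was at 592, 687 and 672 FPKM after rhPOSTN, against 717, 825 and 490.2 FPKM after PBS. PBS libraries 1 and 2 lay above all rhPOSTN libraries and PBS library 3 below them, so that the difference was -0.03 ± 0.21 over all 6 libraries and -0.24 without PBS library 3.

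PGK1, which makes the first ATP of glycolysis (ENSG00000102144.13_2, chromosome X from 77320685 to 77384793, plus strand), was at 113, 118 and 120.2 FPKM in the rhPOSTN libraries, against 142, 152 and 124 FPKM in the PBS libraries. The 3 rhPOSTN values lay close together and below every PBS value, and PBS library 3 was the PBS value nearest to them. The difference was -0.24 ± 0.12 (SE; limma unadjusted p = 0.0803, adjusted p = 0.951), and -0.33 without PBS library 3. ENO1, the main enolase (ENSG00000074800.13_3, minus strand of chromosome 1, 8921061 to 8939308), was at 371, 388 and 368 FPKM in the rhPOSTN libraries, against 416, 440.2 and 466 FPKM in the PBS libraries. Its groups did not overlap, with a difference of -0.23 ± 0.11 (SE; limma unadjusted p = 0.084, adjusted p = 0.951) and of -0.19 without PBS library 3. ENO2, the neuronal enolase that hypoxia also induces, was at 27.5, 27.1 and 21.3 FPKM after rhPOSTN and 26.4, 29.4 and 29.8 FPKM after PBS. Of the summed FPKM of ENO1 and ENO2 it made up 5.47% to 6.90% after rhPOSTN and 5.98% to 6.25% after PBS.

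Lactate dehydrogenase has a LDHA subunit, which HIF induces, and a LDHB subunit. LDHA was at 139.9, 154 and 152 FPKM in the rhPOSTN libraries, against 165, 189 and 86.2 FPKM in the PBS libraries. The rhPOSTN values lay below PBS libraries 1 and 2 and above PBS library 3, with a difference of 0.10 ± 0.29 (SE) over all 6 libraries and -0.25 without PBS library 3. LDHB was at 170.2, 202 and 175 FPKM after rhPOSTN and at 184, 181 and 257 FPKM after PBS, with a difference of -0.17 ± 0.17 (SE) that was -0.0045 without PBS library 3. LDHA therefore held 45.1%, 43.3% and 46.6% of the lactate dehydrogenase FPKM after rhPOSTN, against 47.2%, 51.2% and 25.1% after PBS. PBS library 3 held a share unlike that of the other 5 libraries, PBS library 1 lay just above the rhPOSTN values, and PBS library 2 lay further above them.

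**Figure D2:**
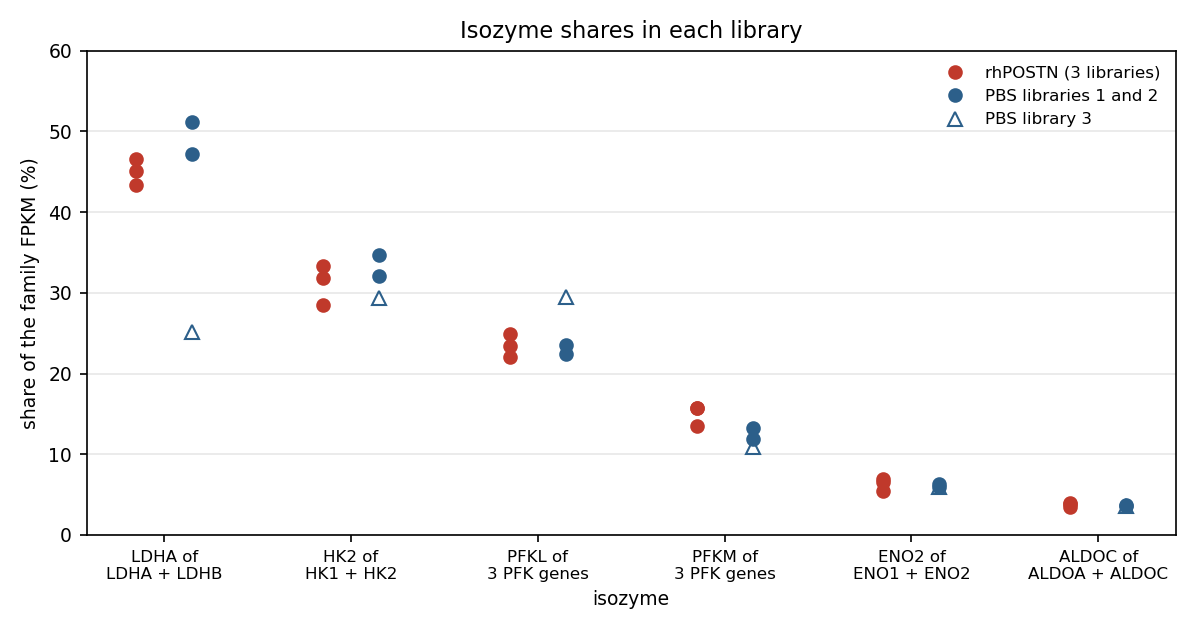
Share of 1 isozyme in the summed FPKM of the members of its family (percent), 1 point per library. Values after rhPOSTN are left of PBS, and PBS library 3 is an open triangle. The LDHA share of PBS library 3 lies at 25.1%, below the 43.3% to 51.2% of the other 5 libraries, and the PFKM shares of the groups do not overlap.

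Of the remaining glycolytic enzymes, GPI, the isomerase after hexokinase, ranged from 20.9 to 22.5 FPKM after rhPOSTN and from 19.9 to 27.6 FPKM after PBS. PGAM1, the mutase before enolase, ranged from 136 to 159 FPKM after rhPOSTN and from 146 to 182 FPKM after PBS. PKM, which makes pyruvate, ranged from 98.7 to 120.3 FPKM after rhPOSTN and from 118 to 175 FPKM after PBS, with a difference of -0.31 ± 0.18 (SE) and of -0.14 without PBS library 3. The groups overlapped in all 3 genes, and the limma adjusted p was 0.951 for each gene. GPI had a difference of -0.12 ± 0.14 (SE), which was -0.24 without PBS library 3. PGAM1 had one of -0.15 ± 0.13 (SE), which was -0.23 without it. In both of these genes the groups did not overlap without that library, with rhPOSTN lower.

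The summed level of the 17 glycolytic enzymes was 2183, 2417 and 2207 FPKM in the rhPOSTN libraries, against 2448, 2634 and 2499 FPKM in the PBS libraries. The means were 2269 ± 128 FPKM after rhPOSTN and 2527 ± 95.7 FPKM after PBS (SD, n = 3 each). The groups did not overlap, by a margin between rhPOSTN library 2 and PBS library 1 that was smaller than the spread within either group. As a percentage of the summed FPKM the enzymes held 1.19%, 1.25% and 1.16% after rhPOSTN, against 1.30%, 1.37% and 1.28% after PBS. When the 13 mitochondrially encoded genes were left out of the total the percentages were 1.25%, 1.32% and 1.26% after rhPOSTN and 1.40%, 1.48% and 1.30% after PBS, and PBS library 3 then lay below rhPOSTN library 2. Without GAPDH the sums were 1591, 1730 and 1535 FPKM after rhPOSTN and 1732, 1809 and 2009 FPKM after PBS, a separation of the groups by less than the spread within either.

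**Figure D3:**
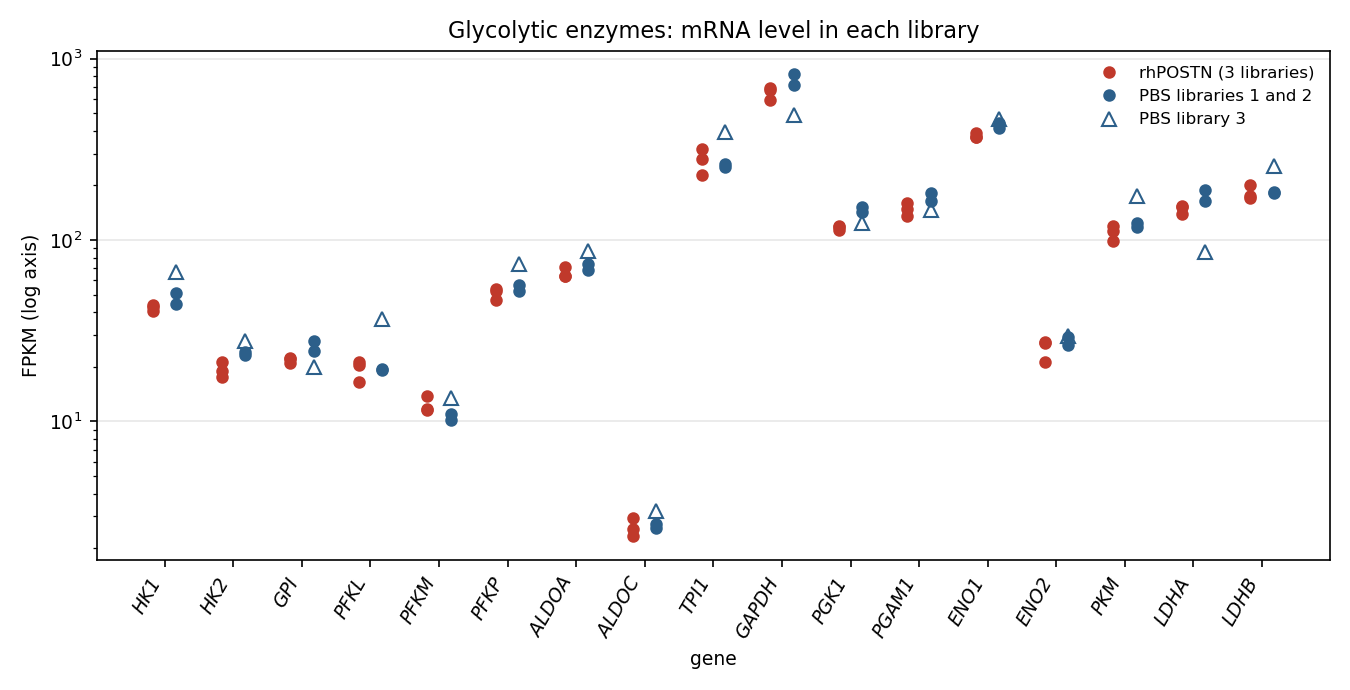
Level of the 17 glycolytic enzymes in each library (FPKM, log axis), in pathway order, with rhPOSTN left of PBS and PBS library 3 as an open triangle. HK1, HK2, PGK1 and ENO1 show no overlap between the groups, and PBS library 3 lies above PBS libraries 1 and 2 in 12 of the 17 genes and below them in 5.

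Reads of several enzymes can be shared with processed pseudogenes. In the GENCODE 29 annotation, 10 of the 17 glycolytic enzymes have pseudogenes named after them, 101 in all, among them 62 of GAPDH, 13 of PGAM1, 6 of LDHA and 5 of PKM, and BNIP3 has 39. Among the glycolytic enzymes, GPI, ALDOC and ENO2 share part of their locus with a gene on their own strand, and PFKM and TPI1 with one on the opposite strand. The part of such sharing in these values was not tested.

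Among the members, SLC2A1 and SLC2A3 let glucose enter, SLC16A3 lets lactate leave, and PDK1 keeps pyruvate from the mitochondria by inhibiting pyruvate dehydrogenase. SLC16A1, a further lactate transporter that is not a member, had a mean of 38.4 FPKM after rhPOSTN and 31.1 FPKM after PBS. Its rhPOSTN libraries all lay above its PBS libraries (background 8.94%), with a difference of 0.35 ± 0.24 (SE), which was 0.06 without PBS library 3. SLC2A1, the basal glucose transporter, ranged from 24.3 to 26.9 FPKM after rhPOSTN and from 26.4 to 29.1 FPKM after PBS, with a difference of -0.12 ± 0.10 (SE). SLC2A3, a high-affinity transporter, ranged from 4.95 to 6.30 FPKM after rhPOSTN and from 4.16 to 13.5 FPKM after PBS. The high SLC2A3 value was that of PBS library 2 alone. SLC16A3 ranged from 16.3 to 22.6 FPKM after rhPOSTN and from 17.4 to 24.5 FPKM after PBS. PDK1 ranged from 5.28 to 6.10 FPKM after rhPOSTN and from 4.30 to 6.96 FPKM after PBS, with its lowest value in PBS library 3. The groups overlapped in all 4 members, and without PBS library 3 SLC2A1 and PDK1 did not overlap, with rhPOSTN lower.

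BNIP3 and BNIP3L are receptors on the outer mitochondrial membrane that mark mitochondria for autophagy in hypoxia. BNIP3 (ENSG00000176171.11_2, minus strand of chromosome 10, 133779959 to 133795517) was at 37.6, 41.6 and 39.4 FPKM in the rhPOSTN libraries, against 42.4, 48.9 and 45.3 FPKM in the PBS libraries. The groups did not overlap, and the difference of -0.20 ± 0.11 (SE; limma unadjusted p = 0.107, adjusted p = 0.951) was also -0.20 without PBS library 3. BNIP3L was at 66.9, 35.8 and 76.4 FPKM in the rhPOSTN libraries, against 59.3, 73.7 and 72.1 FPKM in the PBS libraries. Its groups overlapped, and rhPOSTN library 2 held a value far below the other 5.

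Carbonic anhydrase 9, the enzyme encoded by CA9, sits on the cell surface, acidifies the surroundings of hypoxic cells and is a widely used hypoxia marker. CA9 (ENSG00000107159.12_2, chromosome 9 from 35673853 to 35681156, plus strand) was at 0.838, 0.713 and 0.638 FPKM in the rhPOSTN libraries, against 1.23, 1.14 and 2.89 FPKM in the PBS libraries. All 3 rhPOSTN values were under 1 FPKM and all 3 PBS values above it, and PBS library 3 was the highest by far. The difference was -0.62 ± 0.24 (SE; 95% interval -1.18 to -0.05; limma unadjusted p = 0.0372, adjusted p = 0.951), and -0.34 without PBS library 3. At this level a pseudocount of 1 understates the ratio. CA9 overlaps ARHGEF39, which lies on the other strand, and no source used here says if StringTie was told the strand of the reads.

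Of the secreted factors, ANGPTL4, which inhibits lipoprotein lipase, had the smallest unadjusted p of the 36 members with all 6 libraries. ANGPTL4 (ENSG00000167772.11_3, chromosome 19 from 8428173 to 8439257, plus strand) was at 1.59, 1.17 and 1.05 FPKM in the rhPOSTN libraries, against 2.16, 2.25 and 3.26 FPKM in the PBS libraries. Every rhPOSTN value lay below every PBS value, and PBS libraries 1 and 2 were close to each other. The difference was -0.64 ± 0.16 (SE; 95% interval -1.03 to -0.25; limma unadjusted p = 0.00635, adjusted p = 0.951), and -0.50 without PBS library 3. VEGFA, the angiogenic growth factor, ranged from 11.5 to 12.2 FPKM after rhPOSTN and from 8.52 to 13.0 FPKM after PBS. ADM, a vasodilator peptide, ranged from 18.1 to 21.6 FPKM after rhPOSTN and from 15.1 to 73.9 FPKM after PBS. The high value of ADM was that of PBS library 3, 4.16 times the mean of PBS libraries 1 and 2, and its difference was -0.48 ± 0.54 (SE) with this library and 0.19 without it.

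P4HA1 and P4HA2 encode catalytic subunits of the prolyl hydroxylase that stabilises collagen. P4HA1, one of the most abundant members outside glycolysis, was at 69.0, 67.9 and 72.0 FPKM in the rhPOSTN libraries, against 69.5, 70.4 and 61.5 FPKM in the PBS libraries. Its groups overlapped, with a difference of 0.05 ± 0.11 (SE; 95% interval -0.20 to 0.31), which was -0.03 under median of ratios scaling and -0.01 without PBS library 3. P4HA2 ranged from 13.8 to 15.8 FPKM after rhPOSTN and from 14.2 to 21.4 FPKM after PBS.

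The 3 oxygen sensing genes had positive differences over all 6 libraries, each with an interval that spanned 0. HIF1A (ENSG00000100644.16_3, chromosome 14 from 62162231 to 62214977, plus strand) was at 41.8, 34.7 and 41.3 FPKM in the rhPOSTN libraries, against 38.1, 37.8 and 15.9 FPKM in the PBS libraries. The rhPOSTN values bracketed PBS libraries 1 and 2, and PBS library 3 was lower than all of them. The difference of HIF1A was 0.45 ± 0.33 (SE; 95% interval -0.36 to 1.25; limma adjusted p = 0.951), which was 0.04 without PBS library 3. EGLN1, the main oxygen sensor for HIF, was at 10.3, 10.2 and 11.06 FPKM in the rhPOSTN libraries, against 11.11, 12.1 and 6.68 FPKM in the PBS libraries. Its difference was 0.11 ± 0.21 (SE) over all 6 libraries and -0.13 without PBS library 3, where the groups did not overlap. EGLN3, a sensor that HIF itself induces, was at 1.15, 1.27 and 1.33 FPKM in the rhPOSTN libraries and at 0.884, 1.33 and 1.27 FPKM in the PBS libraries, with overlap. EGLN3 also overlaps SPTSSA on the same strand.

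Of the other HIF targets, DDIT4, an inhibitor of mTORC1 signalling, was at 52.6, 63.8 and 53.9 FPKM in the rhPOSTN libraries, against 59.6, 59.9 and 83.5 FPKM in the PBS libraries. Its groups overlapped, and the difference of -0.24 ± 0.17 (SE) was -0.08 without PBS library 3. NDRG1, a stress-responsive protein, ranged from 13.3 to 18.5 FPKM after rhPOSTN and from 15.5 to 17.3 FPKM after PBS. KDM3A, a histone demethylase, ranged from 7.34 to 8.82 FPKM after rhPOSTN and from 7.0 to 8.86 FPKM after PBS. ANKRD37, an ankyrin repeat protein, ranged from 1.87 to 2.32 FPKM after rhPOSTN and from 1.61 to 3.56 FPKM after PBS. The highest ANKRD37 value was again that of PBS library 3. The summed level of the 19 members outside glycolysis was 412, 388 and 426 FPKM after rhPOSTN and 419, 443 and 483 FPKM after PBS, with overlap.

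**Figure D4:**
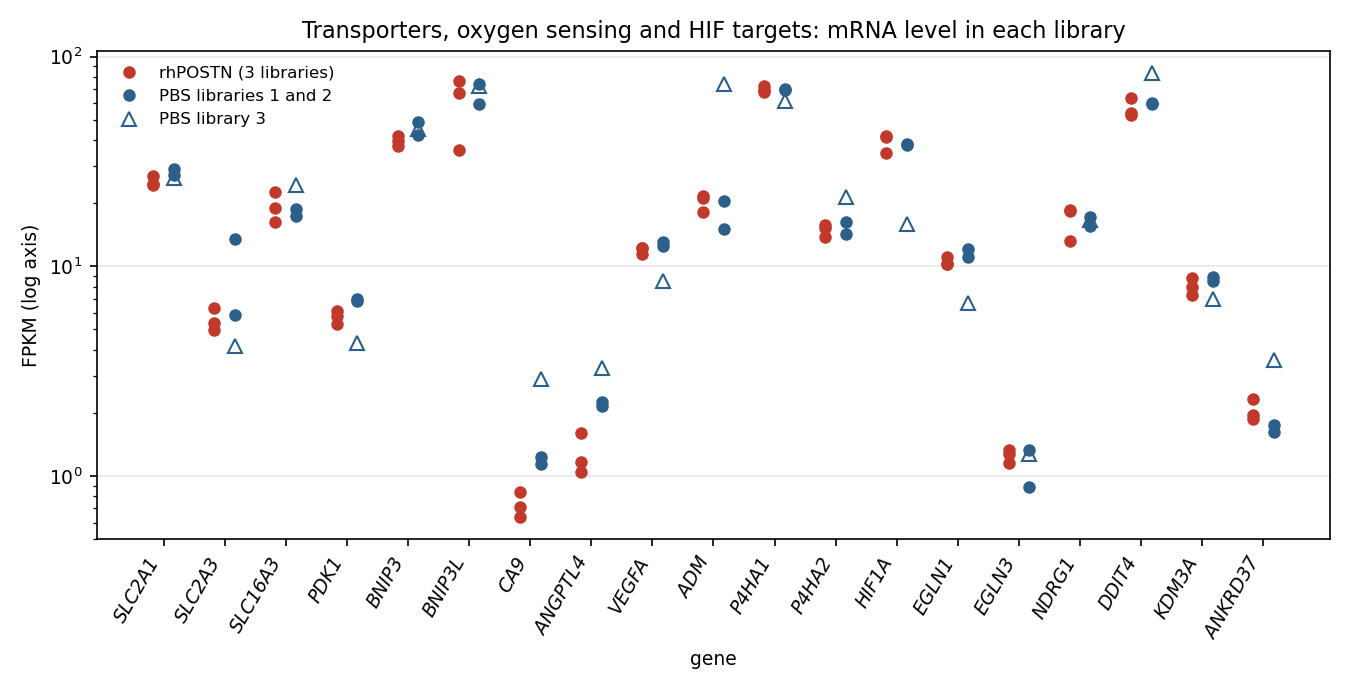
Level of the 19 members other than glycolytic enzymes in each library (FPKM, log axis), with rhPOSTN left of PBS and PBS library 3 as an open triangle. The groups do not overlap in BNIP3, CA9 and ANGPTL4, and PBS library 3 lies apart from PBS libraries 1 and 2 in ADM, CA9 and HIF1A.

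The sign of the difference was not the same with and without PBS library 3 in LDHA, TPI1, SLC16A3, VEGFA, ADM, P4HA1, EGLN1 and ANKRD37. This library lay above both other PBS libraries in 12 glycolytic enzymes and below both in 5 (GPI, GAPDH, PGK1, PGAM1 and LDHA), and among the other members above in 7 and below in 8. Its departure from PBS libraries 1 and 2 went with the GC content of the coding transcripts, with a correlation of 0.58 over the 36 members and 0.46 over 10845 tested genes. The members had a median GC content of 54.0%, against 49.8% over all tested genes. Between GC content and the difference rhPOSTN minus PBS, the correlation over the 36 members was -0.48 over all 6 libraries and 0.12 without PBS library 3. Between transcript length (log2) and this difference, it was -0.54 over the 17 glycolytic enzymes and -0.53 without PBS library 3. Over the 36 members the correlation with length was 0.12 and -0.19 without that library, and over all tested genes 0.08 and -0.06. These are correlations across genes of the same libraries, and genes are not independent replicates. The part of GC content and of transcript length in the differences was not tested beyond the removal of smooth curves given above. After that removal the median difference was -0.20 for the glycolytic enzymes and -0.14 for the other members, against 0.00 over all tested genes.

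**Figure D5:**
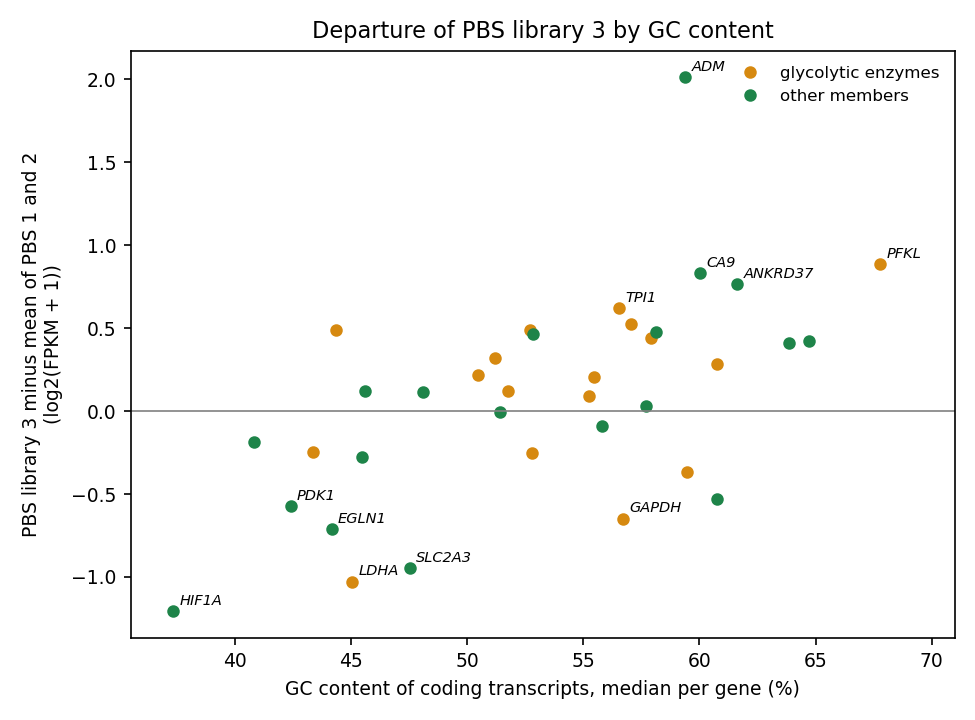
Departure of PBS library 3 from the mean of PBS libraries 1 and 2 on the log2(FPKM + 1) scale, against the median GC content of the coding transcripts of each gene (percent), for the 17 glycolytic enzymes and 19 other members. Members of high GC content such as ADM, PFKL and CA9 lie above 0, HIF1A and LDHA of low GC content lie below it, and VEGFA (60.7%) and GPI (59.5%) lie below it despite a high GC content (correlation 0.58 over 36 genes).

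Other genes of these pathways were read from 7 lists, which held 95 genes, of which 82 were tested. Limma called 0 of the 82, with 3 higher (PDP2, ENO3 and BPGM) and 2 lower (IGFBP3 and STC2) at an unadjusted p under 0.05, where the shares of all tested genes were 2.45% and 0.765%. The rhPOSTN libraries lay above the PBS libraries in 9 genes (background 8.94%) and below them in 3 (background 2.76%). Of the 82 differences 38 were negative (background 36.5%), with a median of 0.01. Among 25 further HIF targets, 16 differences were negative, with a median of -0.03 (-0.10 without PBS library 3). Without PBS library 3 a total of 7 of them were lower (background 2.48%) and 0 higher (background 7.07%) at an unadjusted p under 0.05. IGFBP3, a binding protein of insulin-like growth factors, was at 4.21, 2.76 and 3.27 FPKM in the rhPOSTN libraries, against 5.57, 4.81 and 5.43 FPKM in the PBS libraries. STC2, a secreted glycoprotein, was at 50.9, 53.5 and 53.3 FPKM in the rhPOSTN libraries, against 66.8, 63.8 and 66.7 FPKM in the PBS libraries. In both genes all rhPOSTN values lay below all PBS values and PBS library 3 resembled PBS libraries 1 and 2.

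The other lists are given by the medians of their genes, and differences between lists were not tested. The 7 tested genes of other glycolytic isozymes and regulators, such as ENO3 and BPGM, had a median difference of 0.10 (0.19 without PBS library 3). In 4 of these 7 the rhPOSTN libraries lay above the PBS libraries (background 8.94%) and in 0 below (background 2.76%). The lists were chosen with earlier results of these data known. The 5 further transporters of lactate and glucose had a median of 0.07 (0.06 without PBS library 3). The 16 genes of the tricarboxylic acid cycle had a median of 0.01 (-0.04 without PBS library 3), and the 12 genes of the pyruvate dehydrogenase complex and its regulators one of 0.17 (-0.01 without it). The medians were 0.06 (0.03 without PBS library 3) for the 7 genes of the pentose phosphate pathway and 0.00 (0.09 without it) for the 10 genes of the HIF machinery. PDP2, a phosphatase that activates pyruvate dehydrogenase, was at 7.99, 7.12 and 7.12 FPKM in the rhPOSTN libraries, against 5.57, 5.67 and 3.53 FPKM in the PBS libraries. ENO3, the muscle enolase, was at 1.97, 2.40 and 2.39 FPKM in the rhPOSTN libraries, against 1.18, 1.33 and 1.91 FPKM in the PBS libraries. In both genes every rhPOSTN value lay above every PBS value, and the limma adjusted p was 0.951.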

How the data were processed

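Per the labels and the methods of the study, the authors built stranded mRNA libraries, removed adapters with Cutadapt, aligned reads with HISAT2, estimated abundance with StringTie and deposited FPKM values per gene from Ballgown. The submitters' processing notes name GRCh37, versions of these 4 tools are not stated in the sources read, and the header of the rhPOSTN table names no unit. Groups come from the treatment label, with 3 libraries per group, and 0 columns of values were left unused.

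From these values, log2(FPKM + 1) was compared with limma 3.58.1 in R 4.3.3 (eBayes with a trend, two-sided) over the 10982 genes whose mean reached 1 FPKM after rhPOSTN or after PBS, with Benjamini-Hochberg adjustment at 0.05. The procedure was tested on simulated data, and the outcome is not given here. With so few libraries per group, a member that was not called is not thereby shown to be unchanged. Log2 differences on this scale understate the change of low genes. Levels in every library are given for members with an unadjusted p under 0.05 or groups without overlap, the 3 most abundant of each kind, the oxygen sensing genes, the isozyme families and the 2 largest differences in each direction, and of other pathway genes for the 4 with the smallest p. GC content, transcript length and pseudogene names come from GENCODE 29 (GRCh38), matched by gene, and promoters from RefSeq (GRCh38.p14), matched by symbol. The members and lists were chosen with earlier results of these data known. Of the other cell type markers, 1 of 6 for astrocytes, 1 of 4 each for neurons, oligodendrocytes and endothelium and 0 of 4 for T cells were listed. Alternatives were pseudocounts of 0.1 and 5, no filter, a filter at 5 FPKM, 2 rescalings, no trend, a replicate block and leaving out each library. Removing GC and length curves, and leaving out PBS library 3 together with median of ratios scaling, were chosen after seeing the data.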

Additional observations from a re-analysis of the deposited data

How the results depend on the processing

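Over 16 alternatives, 0 members were called by limma under any, with 0.368 as the lowest adjusted p of any member. Directions were followed for 23 of the 36 members, and of their 365 values 21 had the other direction, in 9 members. SLC16A3, VEGFA and ANKRD37 were not among the 23 and also changed sign without PBS library 3, as given above. The number of all tested genes called, 2, was 1 with a pseudocount of 0.1, with the 5 FPKM filter and with the replicate block, 9 without PBS library 3 under median of ratios scaling, and 1 to 11 with each library left out. Members lower at an unadjusted p under 0.05, 3 in all, numbered (with the share of all tested genes in brackets, likewise for the counts that follow) 1 with the 5 FPKM filter (0.896%) and with the replicate block (0.492%), 5 under median of ratios scaling (1.51%) and with GC and length curves removed (1.86%), 11 without PBS library 3 under that scaling (4.39%), and 1 to 8 with each library left out (0.364% to 2.48%). Glycolytic enzymes whose rhPOSTN libraries all lay below the PBS libraries, 4 as deposited, numbered 7 under median of ratios scaling (5.67%), 8 with the curves removed (6.05%), 10 without PBS library 3 under that scaling (15.8%) and 4 to 8 with each library left out (3.94% to 10.2%). The other members lower in this way, 3 as deposited, numbered 1 with the 5 FPKM filter (3.44%), which drops CA9 and ANGPTL4, 7 without PBS library 3 under that scaling (15.8%) and 3 to 7 with each library left out (3.94% to 10.2%). The median of the glycolytic enzymes was -0.25 under median of ratios scaling and -0.24 to -0.14 with each library left out. The median of the other members was -0.051 with a pseudocount of 5, -0.052 with the same sum without mitochondrial genes, -0.14 under median of ratios scaling and with the curves removed, -0.13 without PBS library 3 under that scaling and -0.15 to -0.065 with each library left out. The summed glycolytic FPKM differed by -258.1 as deposited, by -395 under median of ratios scaling and by -332 to -205 with each library left out. Among the 23 members, directions were reversed without PBS library 3 under median of ratios scaling for LDHA (-0.29), TPI1 (0.038), HIF1A (-0.0038), EGLN1 (-0.17), ADM (0.15) and P4HA1 (-0.055). They were also reversed for GAPDH with the same sum (0.00018), for P4HA1 under median of ratios scaling (-0.028) and with the curves removed (-0.067), and for EGLN1 with the curves removed (-0.0072). With each library left out the differences ran from -0.25 to 0.32 for LDHA, -0.24 to 0.13 for GAPDH, -0.24 to 0.086 for TPI1, -0.13 to 0.26 for EGLN1, -0.036 to 0.12 for EGLN3, -0.91 to 0.19 for ADM, -0.0075 to 0.089 for P4HA1 and -0.47 to 0.070 for BNIP3L. The causes of these shifts were not tested. For libraries of equal number the correlations of their deviations from the group mean were -0.044, -0.187 and -0.424. No rhPOSTN library correlated best with the PBS library of its own number. Deviations within a group depend on each other, PBS library 3 included, so these correlations cannot settle if libraries were paired. The labels state no pairing, and the replicate block is given only here.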
